A study of Mus musculus with 20 samples.

Results

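DEAD-box and DEAH-box proteins are RNA helicases named for the amino acids of a conserved ATP-binding motif. They use ATP to unwind or remodel RNA, or to strip proteins from it. Between them they act at nearly every step of RNA metabolism, from splicing and messenger RNA export to translation, decay and ribosome assembly. In growing cells much of the family works in the nucleolus, where ribosomal RNA is cut, folded and packed with protein. The 49 genes described here are all rows of the expression table named Ddx or Dhx plus a number, out of 15757 genes in all. They comprise 34 Ddx and 15 Dhx genes on 15 chromosomes. The rule matched 53 names and left out 4 of them, the antiviral sensor genes Ddx58 and Dhx58 and the X- and Y-linked pair Ddx3x and Ddx3y. Membership was set by name, not by any measured value, though the family was chosen with earlier results of these data known. No filter on low values was applied beyond any that the deposited table already carries. The mean level over all libraries was at least 100 normalized read counts for 47 members, and below that for the germline genes Ddx25 and Ddx4. Names are those of the table, and 1 of them is an older symbol: the reference annotation calls Ddx26b Ints6l, a relative of the Integrator complex subunit Ints6. Ddx26b is counted among the helicases by its name alone, and whether it acts as one was not tested.

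The cells were mouse embryonic fibroblasts of the OG2 strain, which carries an Oct4-driven GFP transgene, used at passage 2. They were grown in iCD1 medium and driven toward pluripotency by retroviruses that carry the OSKM factors, which are Oct4, Sox2, Klf4 and Myc. In the control arm the cells also carried an shRNA against luciferase, a gene the mouse does not have. In the knockdown arm they carried an shRNA against Ddx10. Each arm was sampled at days 0, 1, 3, 5 and 7, giving 10 groups of 2 libraries each, 20 in all. OSKM is named in the label of every library, day 0 included, and the time from infection to day 0 is not given. Several Ddx10 shRNAs are mentioned in the series text, but the labels do not say which was used in which library. An effect of lower Ddx10 and an effect of the shRNA on other targets therefore cannot be told apart. Replicates are described as biological, but whether they came from separate cultures is not stated. A p-value here therefore reflects the spread between the 2 samples of a group, pooled over all 10 groups, and that spread may be technical. In these bulk libraries, fewer cells of a type and less RNA per cell cannot be told apart.

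Column sums of normalized read counts ran from 15700000 to 21300000 and were highest at day 0, and 75 to 739 genes per library were at 0. The depth in reads is unknown. Replicates of control day 1 differed most, with a median absolute log2 difference of 0.213 between them, against 0.0921 to 0.134 in the other groups. All 12 fibroblast markers were present in the day 0 controls, with summed levels of 723000 and 666000. They fell over the control course (10 of 12 lower and 0 higher at day 7), while 11 of 12 pluripotency markers and 10 of 10 epithelial markers rose. Genes were called by limma at an adjusted p under 0.05, and log2 changes are differences in mean log2(value + 1), a scale that understates changes of low genes. The deposited scaling keeps the median gene nearly level between days, and the column sums fall over the course. Scaling every column to the same total instead put the median log2 change of all genes at 0.26 at day 1 and 0.51 at day 7 of the control course. It also moved the share of higher genes among those called at day 1 from 51.4 to 71.2%, and at day 7 from 53.4 to 72.3%. Rises of helicases reported below passed the test under both scalings, whereas most falls did not. Equal totals lifted the later days, so rises against day 0 could hardly be lost and their passing is no check. Under quantile scaling, 22 of the 25 control rises at day 3 and 21 of the 22 at day 5 kept their call. Those at days 1 and 7 all kept it. Changes are therefore best read relative to the median gene.

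Ddx10, the target of the shRNA, encodes a nucleolar helicase of small ribosomal subunit assembly. The gene lies on chromosome 9 (mm10, 53098635 to 53248053, minus strand). In the control arm its level was 523 and 500 normalized read counts at day 0, 804 and 921 at day 1, 803 and 841 at day 3, 796 and 729 at day 5, and 867 and 763 at day 7. In the knockdown arm the libraries read 313 and 319, 255 and 322, 306 and 355, 426 and 455, and 530 and 529 on the same days. On every day both knockdown libraries lay below both controls. As a share of the control mean, the knockdown mean was 61.8% at day 0, 33.4% at day 1, 40.2% at day 3, 57.8% at day 5 and 65.0% at day 7. The log2 difference was -0.69, -1.58, -1.31, -0.79 and -0.62 on those days (SE 0.12 each), with limma adjusted p = 0.0072, 8.78e-06, 5.98e-05, 0.000644 and 0.00446. At day 0 Ddx10 no longer passed when knockdown replicate 1 was left out (limma adjusted p = 0.0562). At day 7 it no longer passed without control replicate 1 (0.0777) or without knockdown replicate 2 (0.0502). Fitting only the 4 libraries compared gave 0.186 at day 0 and 0.523 at day 1.

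**Figure D1:**
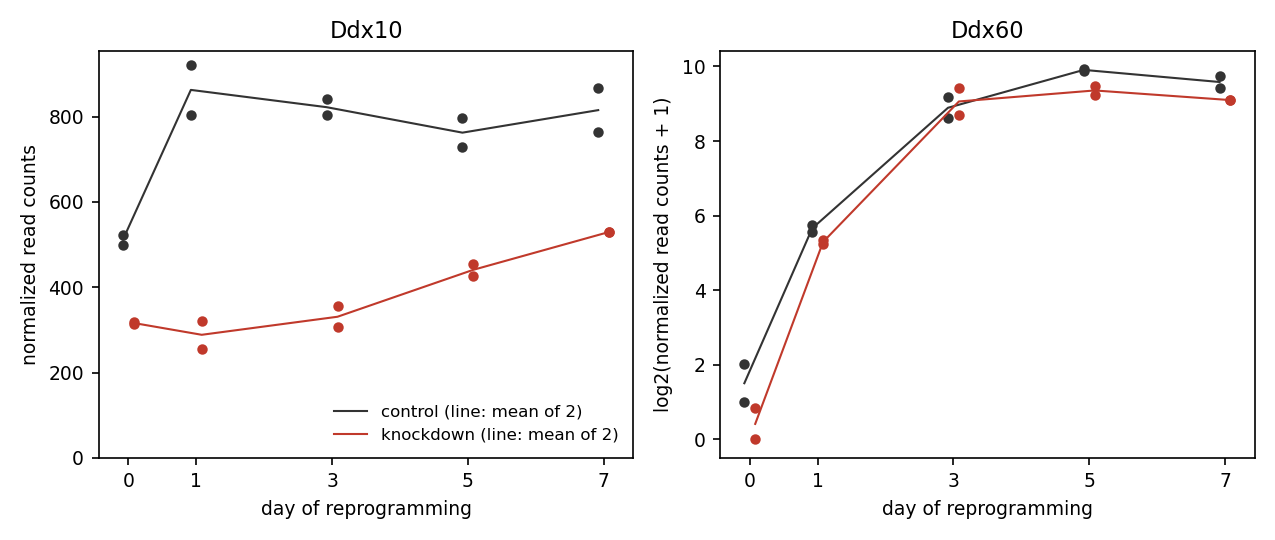
Level of Ddx10 (left, normalized read counts) and Ddx60 (right, log2 of the normalized read count plus 1) against day of reprogramming, with 1 point per library and lines through the group means of 2 libraries. The control arm of Ddx10 rises from day 0 to day 1 while the knockdown arm does not, and Ddx60 climbs in both arms from near 0 at day 0.

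The knockdown was deepest where control Ddx10 rose. Control Ddx10 rose by 0.75 on the log2 scale from day 0 to day 1 (SE 0.12, limma adjusted p = 5.32e-05), when the knockdown arm stood at -0.14 (limma adjusted p = 0.334; 0.02 without knockdown day 1 replicate 1). The 2 changes differed by -0.89 between the arms (SE 0.16, limma adjusted p = 0.0343), and Ddx10 was the 1 member that passed, where 0.273% of all genes were. From day 1 to day 7 the control stood at -0.08, and the knockdown arm gained on it by 0.96 (SE 0.16, limma adjusted p = 0.00838), a comparison added after the data were seen. The call of the day 1 difference, though not its size, depended on single libraries. It was lost without control day 0 replicate 2, control day 1 replicate 2, either knockdown day 0 replicate or knockdown day 1 replicate 1, with limma adjusted p between 0.0544 and 0.124 and differences between -0.91 and -0.73. The stretch upstream of the Ddx10 start holds the CGGAAG core of ETS-family transcription factor sites 3 times. It is shown with the core in capitals because that motif was the commonest of those searched in the family's promoters (GRCm38.p6, chr9:53248193-53248308, minus strand, 196 to 81 bases before the RefSeq start).
Ddx10: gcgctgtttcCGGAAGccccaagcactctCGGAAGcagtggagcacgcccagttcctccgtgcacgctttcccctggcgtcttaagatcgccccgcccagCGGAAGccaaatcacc

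Over the control course the family shifted upward early and then split. At day 1, 25 of the 49 helicases had risen and 5 had fallen (51.0 and 10.2% of members, where 28.3% of all genes were called higher and 26.7% lower). At day 3 the counts were 25 and 6 (34.9% of all genes called higher, 31.3% lower), at day 5 they were 22 and 11 (37.7 and 32.5%), and at day 7 they were 21 and 10 (38.6 and 33.7%). The share of members that rose thus stood well above the background at day 1 and close to it at day 7, while the share that fell stayed below the background on each of the 4 days. These comparisons share the 2 control libraries of day 0. The median log2 change of members was 0.23, 0.26, 0.21 and 0.13 on the 4 days, and that of all genes was 0.0065, 0.073, 0.088 and 0.09. With equal column totals 35, 37, 32 and 37 members rose and 2, 0, 2 and 2 fell, and every member called higher with the deposited values remained called higher. That scaling also raised other genes: 71.2, 73, 72.9 and 72.3% of all called genes were higher on the 4 days. The median log2 change was then 0.5, 0.63, 0.61 and 0.55 for members and 0.26, 0.43, 0.48 and 0.51 for all genes. The falls that passed both ways were Ddx17 and Ddx54 at day 1, and Ddx54 and Ddx19a at days 5 and 7. Of members called lower as deposited, 4 at day 3 and 8 at each of days 5 and 7 stood above 0 with equal totals, though none passed the test in that direction.

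Between them the 49 members took 0.368 and 0.377% of the column total in the day 0 controls. They took 0.581 and 0.601% at day 1, and 0.642 and 0.632% at day 7. Part of that gain lies in the control totals, which fell from 21300000 and 20800000 at day 0 to 15700000 in both day 7 libraries. The share also weighs abundant members most, above all Ddx5 (mean 18500 over all libraries), so it does not describe the typical member. In the knockdown arm the share was 0.409 and 0.393% at day 0 and 0.641 and 0.627% at day 7. By course, 16 members were higher at all 4 later days, 9 were higher on some days, 5 were higher on some days and lower on others, 2 were lower at all 4 days, 10 were lower on some days, and 7 were never called. The control mean peaked at day 1 for 20 members, at day 5 for 11, at day 0 for 7, at day 7 for 6 and at day 3 for 5.

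**Figure D2:**
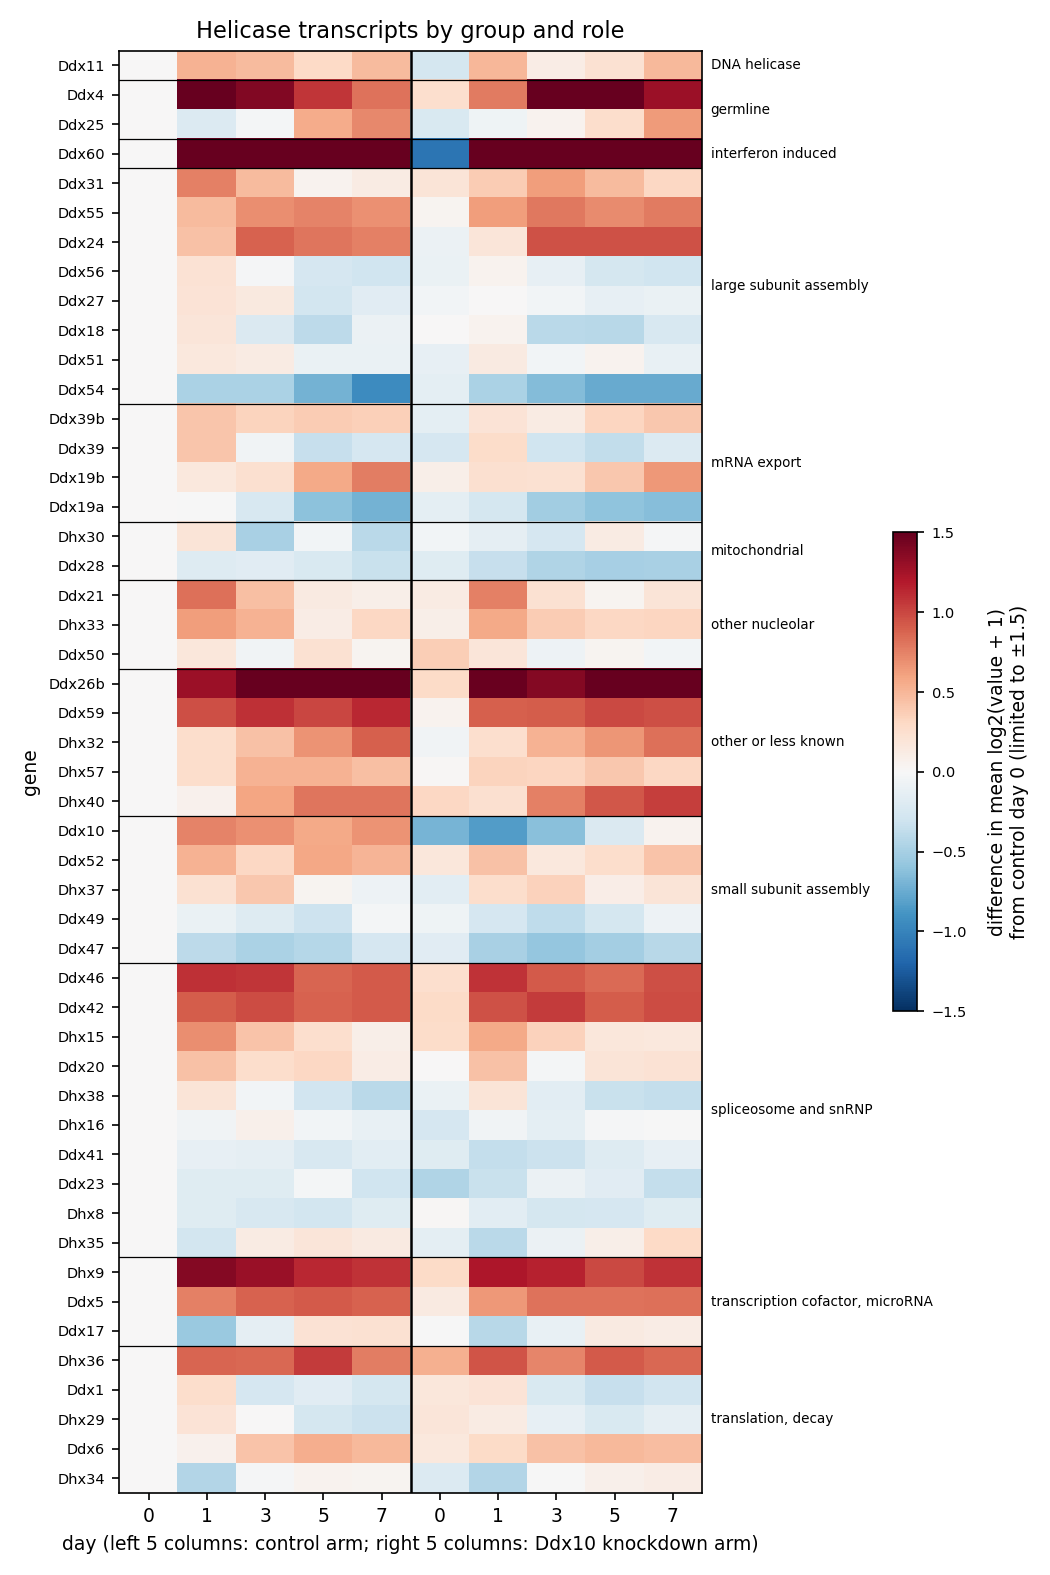
Mean log2(value + 1) of each of the 49 helicases in the 10 groups, less its mean in control day 0, with genes in rows by role and days in columns (control arm left, knockdown arm right); colours are limited to 1.5 in either direction. Ribosome assembly genes are mixed, with Ddx24 and Ddx55 red to day 7 and Ddx54 blue throughout, Dhx9, Ddx46, Ddx42 and Ddx5 stay red, and Ddx10 is the row whose colour differs most between the arms besides the low genes Ddx4 and Ddx60.

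Helicases that build the ribosome rose more often than they fell at day 1, and some held the rise while others lost it. Of 5 helicases of small subunit assembly, Ddx10 and Ddx52 rose at day 1 and Ddx47, needed for early cuts of ribosomal RNA, fell. Ddx52 read 779 and 812 at day 0, 1074 and 1211 at day 1, and 1159 and 1101 at day 7. Its log2 change was 0.52 at day 1 and 0.51 at day 7. Dhx37, which releases the U3 small nucleolar RNA, was called at day 3 alone (0.41). Ddx47 stood at -0.40 at day 1, but that call was lost without control day 0 replicate 2 (limma adjusted p = 0.0514). It stood at -0.26 without control day 1 replicate 1, where it passed (0.0414), and at -0.13 with equal totals, where it did not (0.291). Ddx49 passed no test with the deposited values, and with equal totals it was higher at day 7 of the control course (0.39, limma adjusted p = 0.0246). Its exons overlap those of Homer3 on the other strand over 29.85% of their length, and since the strand of counting is not stated, reads from that stretch cannot be told apart from those of Homer3. Homer3 fell from 2385 and 2335 at day 0 to 860 and 891 at day 7.

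Of 8 helicases of large subunit assembly, 5 rose at day 1 (Ddx24, Ddx27, Ddx31, Ddx55 and Ddx56) and Ddx54 fell. By day 7, 2 were higher and 2 lower. Ddx24 went from 2568 and 2504 at day 0 to 3180 and 3718 at day 1, was highest at day 3 (4719 and 4645), and stood at 4295 and 4256 at day 7. Its log2 change was 0.44 at day 1, 0.88 at day 3 and 0.75 at day 7. Ddx55 held its rise, at 0.47 and 0.69. Ddx31 rose by 0.75 at day 1 and stood at 0.13 at day 7, with control day 1 libraries of 569 and 399 that were far apart. Ddx54, a nucleolar helicase that also binds nuclear receptors, fell throughout. It read 3422 and 3183 at day 0, 2537 and 2238 at day 1, 2043 and 2000 at day 5, and 1714 and 1707 at day 7, with no overlap between day 0 and any later day. The log2 change of Ddx54 at day 7 was -0.95 (SE 0.075, limma adjusted p = 1.17e-08), and -0.52 with equal totals (6.48e-06). Exons on the other strand cover 15.45% of Ddx54. Of the words of 75 bases in Ddx18 transcripts, 44.19% also occur in other genes, 1 pseudogene chief among them, so its values are uncertain.

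Ddx21 and Dhx33, nucleolar helicases that promote ribosomal RNA synthesis, peaked at day 1 of the control course. Ddx21 read 3432 and 3281 at day 0, 5781 and 6157 at day 1, 4557 and 4594 at day 3, 3907 and 3487 at day 5, and 3749 and 3378 at day 7. Its rise of 0.83 at day 1 (SE 0.071, limma adjusted p = 1.08e-07) had shrunk to 0.085 by day 7, a fall of 0.75 from day 1 to day 7 (2.4e-07). With equal totals Ddx21 fell by 0.58 between those days (limma adjusted p = 4.15e-06) and stood 0.51 above day 0 at day 7. Ddx50, its close relative, read 1011 and 1073 at day 0 and 1015 and 1358 at day 1, and passed no test in the control course with the deposited values. Dhx33 rose by 0.63 at day 1, from 864 and 826 to 1313 and 1295.

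Other proteins of the small subunit processome, the large complex that Ddx10 works in, also peaked early. Of 35 genes of a list that were in the table, 22 rose and 1 fell at day 1. Nop58, a core protein of small nucleolar RNPs, rose by 1.06, and Wdr43 by 0.97. At day 7 the counts were 7 and 13, with Bysl, a small subunit assembly factor, at -1.25 and Utp14a, an activator of Dhx37, at 1.23. From day 1 to day 7, 1 rose and 24 fell. Of the 49 helicases, 12 rose and 17 fell over that span (30.7% of all genes called higher and 28.2% lower), a comparison added after the data were seen. Among those called, the largest falls were those of Ddx21, Ddx19a, Ddx39, Ddx31 and Dhx15. That of Ddx31, -0.63, lost its call without control day 1 replicate 1 (-0.37, limma adjusted p = 0.0951). With equal totals 16 helicases rose and 11 fell, where 64.2% of all called genes were higher.

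Among splicing helicases, some rose and held, some rose and returned, and others fell late. Of 10 such members, 4 rose at day 1 (Ddx46, Ddx42, Dhx15 and Ddx20) and Dhx35 fell, and at day 7, 2 were higher and 2 lower. Ddx46, which helps seat the splicing machinery on the branch site, read 1287 and 1205 at day 0, 2482 and 2867 at day 1 and 2349 and 2377 at day 7. Its log2 change was 1.10 at day 1 (SE 0.068, limma adjusted p = 3.49e-09) and 0.92 at day 7. Ddx42, which joins the same early step, went from 1481 and 1381 to 2602 and 2759 at day 1 and 2805 and 2622 at day 7 (0.91 and 0.92). From day 1 to day 7 Ddx46 fell by 0.17 on the log2 scale (limma adjusted p = 0.0378), and Ddx42 stood at 0.02. Dhx15, which takes spent spliceosomes apart, rose and returned, from 3638 and 4075 to 5895 and 6616 at day 1 and 4134 and 4061 at day 7. Ddx20, part of the complex that assembles spliceosomal RNPs, rose by 0.44 at day 1 and stood at 0.12 at day 7. The 2 splicing helicases called lower at day 7 were Dhx38, at -0.40, and Ddx23, at -0.30. Dhx8 stood at -0.18 then and was called at days 3 (-0.24) and 5 (-0.27). The day 3 call of Dhx8 was lost without control day 0 replicate 1 (limma adjusted p = 0.186) or without either control replicate of day 3. With equal totals Dhx8 stood at 0.13 at day 3 and Dhx38 at 0.02 at day 7. Dhx16 passed no test in the control course with the deposited values. Without control day 0 replicate 1 the day 7 value of Dhx38 was -0.26 (limma adjusted p = 0.0442). The fall of Dhx35 at day 1, -0.27, lost its call in each leave-one-out fit of that comparison (limma adjusted p between 0.0758 and 0.149).

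Cofactors of transcription and microRNA processing rose for the long term. Dhx9, a large nuclear helicase that unwinds double-stranded RNA, read 3287 and 3413 in the day 0 controls, 8597 and 8842 at day 1, 8287 and 8134 at day 3, 7517 and 7113 at day 5, and 7070 and 7109 at day 7. Day 0 did not overlap with any later day. The log2 change of Dhx9 was 1.38 at day 1 (SE 0.1, limma adjusted p = 2.99e-08) and 1.08 at day 7 (1.4e-07). Ddx5 and Ddx17 are paralogs that serve the microRNA processor Drosha and act as transcription coactivators. They moved apart at day 1. Ddx5 rose from 11100 and 11660 to 21890 and 16910, and stayed at 21370 and 20530 at day 7. Ddx17 fell from 6928 and 6998 to 4539 and 4911 at day 1, stood at 6334 and 6372 at day 3, and reached 8139 and 8119 at day 7. Its log2 change was -0.56 at day 1 (SE 0.057, limma adjusted p = 6.78e-07) and 0.22 at day 7 (0.00236), and the day 1 fall passed with equal totals too (-0.30, 0.000536). The ratio of Ddx5 to Ddx17 went from 1.60 and 1.67 at day 0 to 4.82 and 3.44 at day 1 and 2.63 and 2.53 at day 7, with no overlap between those days. In the knockdown arm the ratio was 1.85 and 1.76, 3.32 and 3.51, and 2.67 and 2.69.

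**Figure D3:**
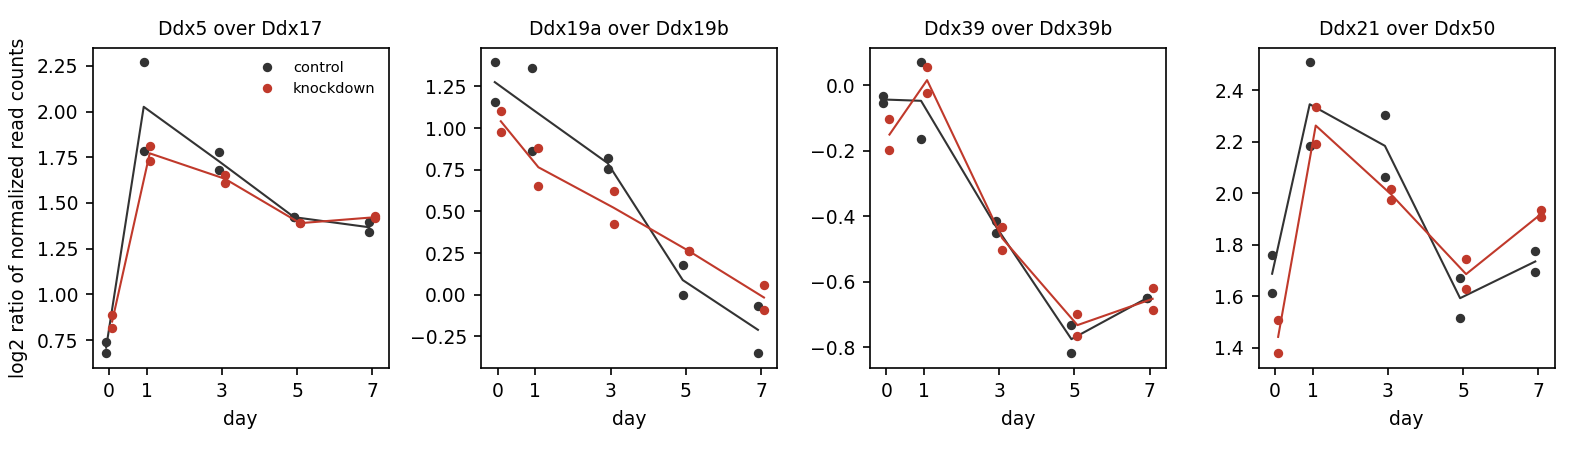
Log2 ratio of the normalized read counts of 4 pairs of related helicases against day, with 1 point per library and lines through the mean of 2 libraries (black, control; red, knockdown). Ddx5 over Ddx17 and Ddx21 over Ddx50 peak at day 1, while Ddx19a over Ddx19b and Ddx39 over Ddx39b are lower at day 7 than at day 0 in both arms.

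Helicases of messenger RNA export come as 2 pairs of related genes, and each pair changed its balance. Ddx19a and Ddx19b lie side by side on chromosome 8 and their products remodel RNPs at the nuclear pore. Ddx19a read 1522 and 1443 at day 0 and 855 and 956 at day 7 (log2 -0.71, SE 0.086, limma adjusted p = 1.82e-06; -0.29 with equal totals, 0.00571). Ddx19b rose from 580 and 648 to 1091 and 1003 (0.77, SE 0.1, limma adjusted p = 3.93e-06). The ratio of the first to the second was 2.63 and 2.23 at day 0 and 0.784 and 0.953 at day 7. In the knockdown arm it went from 2.15 and 1.97 to 0.940 and 1.04. The pair shares sequence: 23.05% of the words of 75 bases in Ddx19a transcripts occur in Ddx19b, and 10.21% the other way, so part of their reads could have been split between them. Ddx39 and Ddx39b encode near-identical subunits of the export machinery that loads onto spliced RNA. Ddx39b rose at day 1 and held (0.42, and 0.36 at day 7), whereas Ddx39 rose by 0.41 at day 1 and then stood at -0.25 at day 7. With equal totals Ddx39 stood at 0.18 at day 7 (limma adjusted p = 0.106). The ratio of Ddx39 to Ddx39b was 0.978 and 0.963 at day 0, 0.892 and 1.05 at day 1, and 0.637 in both libraries at day 7. Exons on the other strand, belonging to the gene the table calls Cd97, cover 17.36% of Ddx39, and Cd97 fell from 2541 and 2237 to 1300 and 1288.

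Among helicases of translation, decay and RNA structure, Dhx36, which unfolds G-quadruplexes, rose at each day. It read 974 and 1126 at day 0, 1649 and 2247 at day 1, and 1909 and 1671 at day 7 (log2 0.88 and 0.77). Ddx6, a repressor and decay factor of P-bodies, rose later, from 4578 and 4648 at day 0 and 4696 and 4953 at day 1 to 6449 and 6523 at day 7 (0.49). Ddx1, of the transfer RNA ligase complex, stood at 0.26 at day 1, -0.25 at day 3 and -0.27 at day 7. At day 3 its call was lost without control day 0 replicate 2 (limma adjusted p = 0.21) or control day 3 replicate 2 (0.2), and with equal totals it stood at 0.12. Dhx29, a translation initiation factor, stood at -0.32 at day 7, and at 0.11 with equal totals. Dhx34, of nonsense-mediated decay, was called lower at day 1 (-0.44) and lost the call without control day 0 replicate 1 (-0.42). With equal totals it stood at -0.18 and was not called (limma adjusted p = 0.276). The call was also lost with the compared libraries only (limma adjusted p = 0.0798) and with library weights (0.108). Of the mitochondrial helicases, Ddx28 stood at -0.34 at day 7 and lost that call without control day 0 replicate 2 (0.123) or control day 7 replicate 2 (0.0587). Dhx30 read 673 and 1206 in the control libraries of day 1 and passed no test with the deposited values.

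The less known members rose as a group over the course. Of these 5, 4 were higher at day 1 and all were higher at days 3, 5 and 7. Ddx26b (Ints6l) climbed from 87 and 202 at day 0 to 285 and 370 at day 1, 748 and 721 at day 5 and 765 and 664 at day 7 (log2 1.28, 2.46 and 2.41). Its day 0 replicates differed more than 2-fold, and every later control library lay above both. Without control day 0 replicate 1 the change of Ddx26b was 0.68 at day 1 (limma adjusted p = 0.0129) and 1.14 at day 3. Ddx59 went from 153 and 119 to 326 and 214 at day 1 and 289 and 305 at day 7 (0.96 and 1.13). Dhx40 stood at 586 and 618 at day 0 and 553 and 719 at day 1, then reached 1009 and 1091 at day 7 (0.80). At day 7 Dhx32 had risen by 0.90 and Dhx57 by 0.46. Ddx11, a DNA helicase of sister chromatid cohesion, rose from 267 and 257 to 352 and 404 at day 1 and 372 and 360 at day 7 (0.53 and 0.48). The germline genes were scarce. Ddx4, the mouse Vasa gene, stayed between 0 and 11.0 in all libraries, and Ddx25, of the testis, read 34.2 and 19.1 at day 0 and 46.5 and 39.7 at day 7. Neither was called against day 0 in the control course. Ddx25 was called from day 1 to day 7 (0.93), a call lost without control day 1 replicate 1 (0.43, limma adjusted p = 0.345) or without either control replicate of day 7. Without control day 1 replicate 2 it was 1.44.

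Ddx60, an interferon-induced helicase of antiviral defence, had the widest range in the family. In the control arm it read 0.986 and 3.05 normalized read counts at day 0, 46.3 and 52.9 at day 1, 388 and 579 at day 3, 948 and 971 at day 5, and 855 and 685 at day 7. In the knockdown arm it read 0.774 and 0, 36.7 and 39.8, 681 and 417, 603 and 710, and 545 and 548 on those days. No later library of either arm came near the day 0 values. On the log2(value + 1) scale the control change was 4.15, 7.39, 8.40 and 8.08 at days 1, 3, 5 and 7 (SE 0.33 each), with limma adjusted p = 5.82e-08 at day 1 and 5.81e-12 at day 7. A list of 12 interferon-stimulated genes, which does not hold Ddx60, moved alongside: all 12 rose at day 1 and at day 7. Their summed level in the control arm was 1730 and 1890 at day 0, 6270 and 6700 at day 1, 53200 and 51300 at day 5, and 39700 and 37300 at day 7. Whether they share a source with Ddx60 was not tested. The bases just before the start of Ddx60 hold the core of interferon response elements 2 times. This core was searched as GAAA, any 2 bases and GAAA again, and it is in capitals below ( GRCm38.p6, chr8:61928019-61928086, plus strand, ending 1 base before the start).
Ddx60: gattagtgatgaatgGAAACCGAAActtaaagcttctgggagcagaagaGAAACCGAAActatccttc

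Promoter windows reached from 250 bases before to 50 bases after each RefSeq start (GRCm38.p6), and 44 of the 49 members had at least 1. Each motif was searched on both strands. The letters CGGAAG occurred in 27 of those members (61.4%), against 31.5% of the 11973 table genes with a window. Counted by window, they occurred in 52.7% of the 55 windows of members and in 16.9% of all 32851 windows. CCAAT, the letters bound by the factor NF-Y, occurred in 23 members (52.3%; 42.9% of table genes). The interferon response core occurred in 2, Ddx60 and Ddx49 (4.5%; 3.7% of table genes). CACGTG, the E-box letters that Myc and related factors bind, occurred in 7 members (15.9%; 11.2% of table genes). Myc is among the factors carried by the viruses, so 2 examples are shown from members that rose at day 1, with the E-box in capitals. Of the 7, Ddx42 rose then too, Dhx35 fell, and Dhx40, Ddx4 and Ddx25 were not called. The first lies on chr11:106788912-106788957 and the second on chr11:71004442-71004487, both on the minus strand, and each is 46 bases long.
Ddx5: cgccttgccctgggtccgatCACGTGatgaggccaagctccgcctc
Dhx33: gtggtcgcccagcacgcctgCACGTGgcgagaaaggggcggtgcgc
A match says only that the letters are present. The other members with an E-box were Ddx42, Dhx35 and Dhx40 and the scarce germline genes Ddx4 and Ddx25.

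Per kilobase of exon, the mean level over all 20 libraries, both arms and all days pooled, was highest for Ddx5 (3200), followed by Ddx17 (890), Ddx39b (808), Ddx21 (805), Ddx6 (731) and Dhx9 (707). The lowest were Ddx4 (1.62), Ddx25 (4.35), Ddx60 (46.7) and Ddx11 (48.9), and Ddx10 ranked 27 of 49 at 182. These pooled levels hide differences between groups. The group mean of Ddx10 per kilobase was 164 at control day 0, 244 to 276 at later control days and 92.2 to 169 in the knockdown arm. That of Ddx60 was 0.233 at control day 0 and 110 at control day 5.

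In the same course RNA helicases outside the name rule mostly rose, while partner proteins of the helicases went both ways. Of all genes, 28.3% were called higher and 26.7% lower at day 1, and 38.6 and 33.7% at day 7. Of 20 RNA helicases in the table whose names the rule did not match, 11 rose and 4 fell at day 1, and 14 rose and 1 fell at day 7. Aqr, of the spliceosome, rose by 0.66 and 0.80 on those days, and Eif4a3, of the exon junction complex, stood at -0.84 at day 7. Of 32 partner proteins of the helicases, 10 rose and 4 fell at day 1, and 5 rose and 10 fell at day 7. The decay scaffold Cnot1, a partner of Ddx6, rose by 0.56 and 1.19, while Gemin7, of the complex that holds Ddx20, stood at -0.95 and -1.19. Proliferation markers moved with the early helicase rise: 11 of 12 rose and 0 fell at day 1, and the sum of the 12 went from 21200 and 21800 to 39100 and 45600. It was 24600 and 21900 at day 5 and 31700 and 31000 at day 7. Macrophage markers fell over the same step, with 9 of 10 lower at day 1 and a summed level of 2840 and 4070 at day 0 against 560 and 489 at day 1. The macrophage marker Tyrobp was under 1 in both control libraries of each later day. The list as a whole did not keep falling, with sums of 1020 and 1050 at day 3 and 1070 and 1120 at day 7. At day 7, 7 of 10 were lower than at day 0 and 2 were higher. From day 1 to day 7, 4 rose and 2 fell. The part of macrophages and of proliferation in the helicase changes was not tested.

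Against the control, the Ddx10 shRNA moved few other helicases. At day 0, 2 members were called (3.31% of all genes were), Ddx10 and Ddx42. Ddx10 alone was called at day 1 (0.146% of all genes), day 3 (4.77%) and day 7 (6.17%), and Ddx10 and Ddx52 at day 5 (8.73%). The share of members called was 4.08% at days 0 and 5 and 2.04% on the others, below the background at days 3, 5 and 7, and Ddx10 itself is always 1 of them. At day 0 no member passed without knockdown replicate 1, and 3 passed without knockdown replicate 2. At day 1, 2 passed without control replicate 1 and 3 without control replicate 2. Ddx42 at day 0 read 1833 and 1668 against 1481 and 1381 in the controls (log2 0.29, SE 0.07, limma adjusted p = 0.0338). Its call was lost without either control replicate (0.0512 and 0.148) or without knockdown replicate 1 (0.292). Ddx52 at day 5 read 963 and 953 against 1184 and 1190 (-0.31, limma adjusted p = 0.0208), but its call was lost without any 1 of the 4 libraries (0.0908 to 0.117). The median member difference was -0.12 at day 3, where that of all genes was 0.015, and between -0.064 and 0.016 on the other days. Proliferation markers were lower in the knockdown at day 3 (7 of 12 fell, with sums of 24300 and 25100 against 31600 and 35700). Their part in the helicase values of that day was not tested.

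Averaged over the 5 days, where the error was smallest, 2 members were higher and 5 lower in the knockdown (14.3% of members, 17.8% of all genes). Beside Ddx10 (-1.0, SE 0.052, limma adjusted p = 5.85e-08), the falls were Ddx60 (-0.46, SE 0.15), Ddx28 (-0.21, SE 0.049), Ddx19a (-0.12, SE 0.038) and Ddx39b (-0.12, SE 0.03). Dhx40 rose by 0.20 (SE 0.052) and Ddx42 by 0.10 (SE 0.031). Ddx28, of mitochondrial ribosome assembly, lay below both controls on 4 of 5 days and reached limma adjusted p = 0.00906. Dhx40 lay above both controls on 3 days (0.0141), and Ddx39b lay below on 4 days and above on 1 (0.0126). These 3 and Ddx10 were called in every leave-one-out fit. The other calls depended on single libraries: the count was 9 without control day 1 replicate 1, and it was 4 without control day 5 replicate 2, knockdown day 1 replicate 2, knockdown day 5 replicate 1 or either knockdown replicate of day 7. Ddx60, Ddx19a and Ddx42 each lost their call in more than 10 of the 20 such fits, with limma adjusted p from 0.0503 to 0.0895, 0.0512 to 0.0995 and 0.0533 to 0.0947 in those. The Ddx60 value rests in part on day 0 levels near 0: with a pseudocount of 0.1 it was -0.78 and was not called (limma adjusted p = 0.125). Ddx60 lay below both controls on 4 of 5 days, and 4 of the 12 interferon-stimulated genes were lower over the mean of days. Of the 35 processome genes, 5 fell and 0 rose, among them Imp4 (-0.29) and Utp3 (-0.14). Of the other RNA helicases, 2 rose and 3 fell, with Mov10, an antiviral helicase, at -0.18 and Eif4a1, of translation initiation, at -0.14. Proliferation markers fell in 7 of 12 and epithelial markers in 7 of 10, while fibroblast markers were higher in 6 of 12, and the part of these shifts in the helicase values was not tested.

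**Figure D4:**
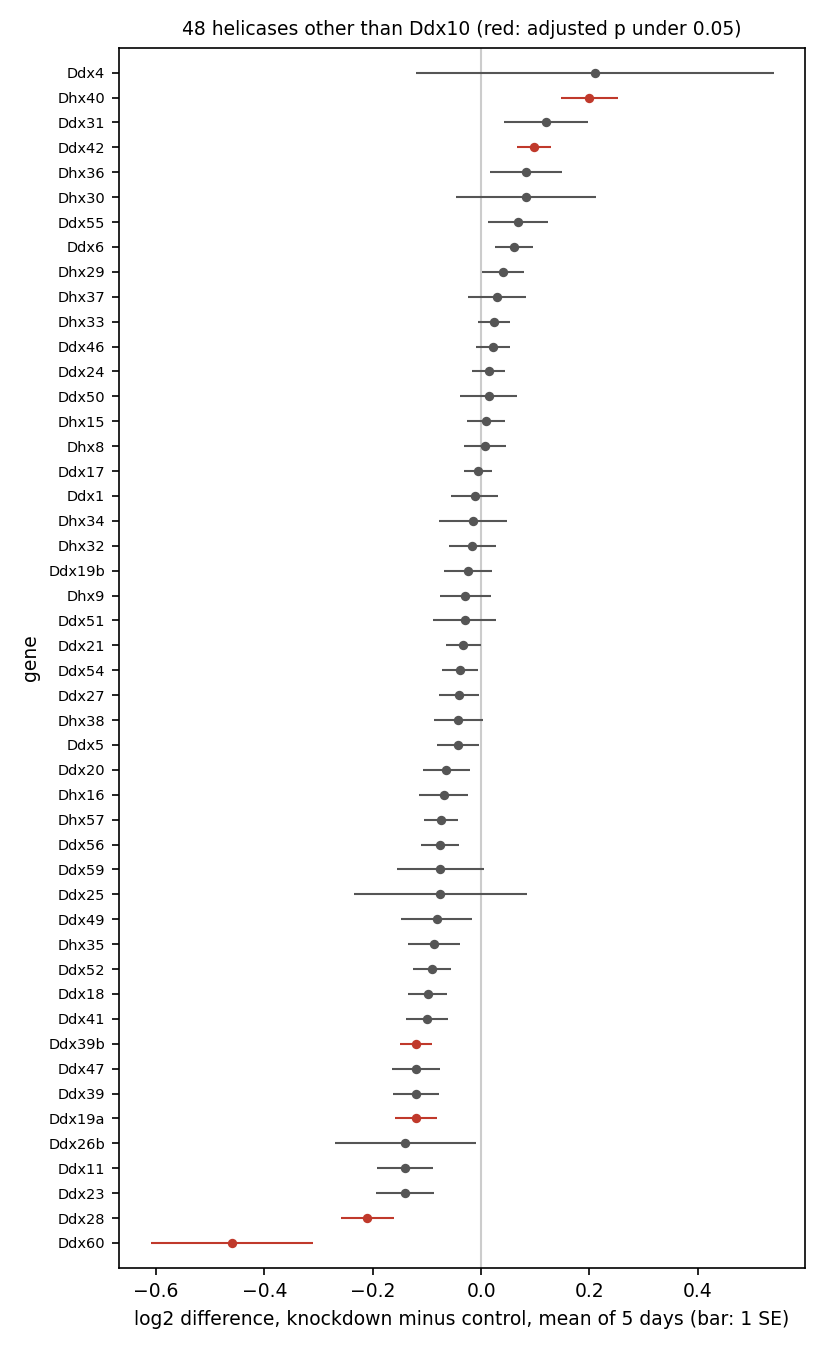
Log2 difference between knockdown and control as the mean of 5 days (horizontal axis, with bars of 1 SE) for the 48 helicases other than Ddx10, in order of the difference. All but Dhx40, Ddx4, Ddx28 and Ddx60 lie within 0.15 of 0. The called genes, in red, are Dhx40 and Ddx42 above 0 and Ddx39b, Ddx19a, Ddx28 and Ddx60 below it.

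Most helicases that rose in the control arm also rose in the knockdown arm. From day 0 to day 1 in the knockdown arm 22 members rose and 3 fell (25.5% of all genes called higher and 24.6% lower), and by day 7, 23 rose and 10 fell (36.2 and 30.9%). Of the 25 that rose in the control at day 1, 20 rose in the knockdown arm too (80.0% of the control's, 90.9% of the knockdown's). The 5 called in the control alone were Ddx1, Ddx10, Ddx27, Ddx31 and Ddx56. At day 7, 19 of the control's 21 rises were shared. Across the 49 members the changes in the arms correlated at r = 0.922 at day 1 and 0.98 at day 7, given as a description since Ddx60 weighs heavily and genes are not independent replicates. The 2 arms share no libraries.

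**Figure D5:**
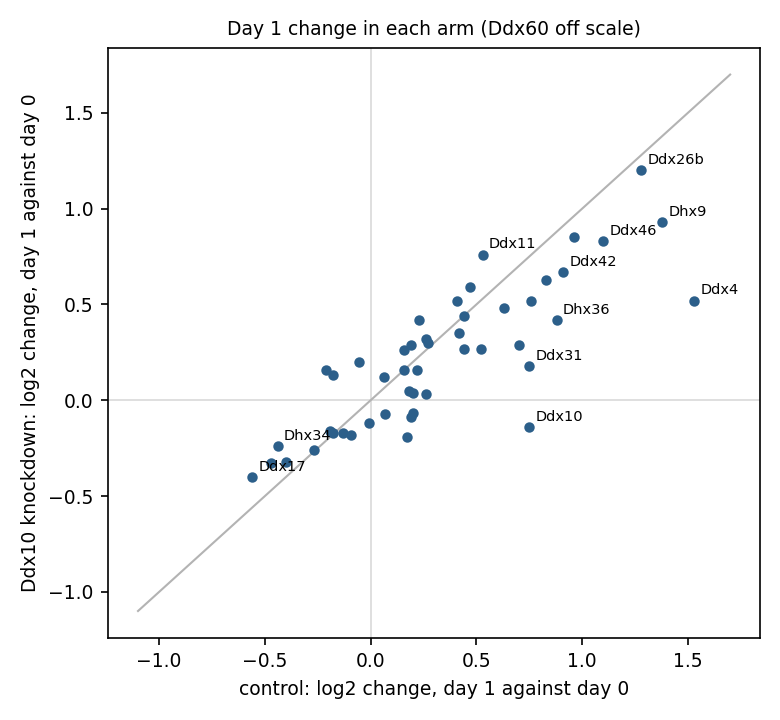
Log2 change from day 0 to day 1 in the knockdown arm against that in the control arm, 1 point per helicase, with the line of equal change in grey; Ddx60 (4.15 in the control, 4.88 in the knockdown) is off the scale. Ddx10 lies farthest below the line besides the scarce Ddx4, and 19 of the 25 helicases that rose in the control rose less in the knockdown arm.

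The day 1 rise was smaller in the knockdown arm for 19 of those 25 members, with a median of 0.44 against 0.63. Dhx9 rose by 0.93 against 1.38, Ddx46 by 0.83 against 1.10 and Dhx15 by 0.29 against 0.70. Members were picked for their rise in the control, so a smaller rise elsewhere is no test, and day 0 levels differed. Dhx9, for one, read 4376 and 3810 in the knockdown at day 0, above its controls. Tested member by member, the difference between arms passed for Ddx10 alone (0.273% of all genes were called, and 23.3% of those were higher). At an unadjusted p under 0.05 there were 10 members, all of them negative. The share of all genes at that level is not given, so this count is not read as a result about helicases. Dhx15 had the next smallest p, at -0.41 (SE 0.11, limma adjusted p = 0.133). The control day 1 replicates, the most uneven pair, bear on this: the count of called members changed without control day 1 replicate 1. For day 7 against day 0, no member was called by limma (6.38% of all genes were). Weighting the libraries called 3 members, with no share of all genes given for that setting. For day 7 against day 1, Ddx10 and Ddx24 were called (1.98% of all genes). That count changed when single libraries were left out, with no share of all genes given for those fits. Ddx24 in the knockdown arm went from 2831 and 2928 at day 1 to 4863 and 4933 at day 7, and in the control from 3180 and 3718 to 4295 and 4256. The difference was 0.45 (SE 0.095, limma adjusted p = 0.0218). That call of Ddx24 was lost without any 1 of the libraries of knockdown day 1, knockdown day 7 or control day 7 (0.0596 to 0.105).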

How the data were processed

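RNA of 20 libraries was sequenced. The authors deposited 1 table of normalized read counts, a signal value for each gene and library, in 20 columns. Per the submitters' processing notes, the build was mm10 and the tools were DESeq2 1.22.0, RSEM 1.2.22, STAR 2.5.2a and Trim Galore 0.4.4, with no order or role given, and the strand of counting is not given in the sources used here. Whole reads could not be recovered from the values, so a test for counts was not used. Values were transformed to log2(value + 1) and fitted with limma 3.58.1 in R 4.3.3 (trend and robust settings, 10 group means, residual degrees of freedom 10). P-values were adjusted by the method of Benjamini and Hochberg over 15757 genes, with a threshold of 0.05, and the fit was tested on simulated data. The members and lists were chosen with earlier results of these data known. Named genes are Ddx10, the called members with the 5 largest changes in each direction of each comparison, the related pairs, Ddx60, Ddx11, the germline genes and the 2 genes of smallest p in each context list; other members and overlapping genes were named after their values were seen. There were 2 comparisons added later. Transcript overlaps and shared words of 75 bases come from GENCODE M21, of the same build. Replicate numbers did not pair the libraries. Alternatives were other pseudocounts, quantile scaling, equal column totals, a mean filter, the compared libraries alone, a replicate block, library weights and leaving out each library. The values of 1 gene of a context list are not reported here.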

Additional observations from a re-analysis of the deposited data

Results flagged for a closer look

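The arms differed in their change over time for Ddx10 and Ddx24. For Ddx10 the change from day 0 to day 1 was lower in the knockdown arm by 0.89 on the log2 scale (-0.89, limma adjusted p = 0.0343), and the change from day 1 to day 7 was higher by 0.96 (limma adjusted p = 0.00838). For Ddx24 the change from day 1 to day 7 was higher in the knockdown arm by 0.45 (limma adjusted p = 0.0218). Both day 1 to day 7 differences come from a comparison added after the data were seen, and they share the day 1 libraries with the first.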

How the results depend on the processing

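Called results for named genes kept their direction under every alternative except equal column totals, where 9 turned. That alternative was chosen after seeing the data. Those that turned were Ddx1 (0.12), Ddx19a (0.13) and Dhx8 (0.13) at control day 3, Ddx18 (0.0157) and Ddx39 (0.0563) at day 5, and Dhx38 (0.0214), Ddx28 (0.0872) and Dhx29 (0.11) at day 7. The ninth was Dhx29 at knockdown day 7 (0.049). None of the 9 passed the test in the new direction. Counts of called members moved as follows. At knockdown against control day 0 the count of 2 became 4 with a pseudocount of 0.1, 1 with quantile scaling, 5 with equal column totals, 5 with a mean of at least 50, 0 with the compared libraries only, 1 with library weights and 0 to 3 leaving out 1 library each. A crossed pairing of the day 0 libraries, also added later, gave 7. Day 1 gave 0 with the compared libraries only and 1 to 3 leaving out 1 library. Day 3 gave 5 with library weights. Day 5 gave 1 without any 1 of its 4 libraries. Day 7 gave 3 with the compared libraries only, 3 with library weights and 0 to 1 leaving out 1 library. The mean of all days gave 4 to 9 leaving out 1 library. Control day 1 against day 0 gave 19 of 30 with the compared libraries only. The difference between arms at day 1 gave 0 with quantile scaling, with the compared libraries only and with library weights, and 0 to 6 leaving out 1 library. From day 0 to day 7 it gave 2 with the compared libraries only, 3 with library weights and 0 to 1 leaving out 1 library. With the replicate block the count for the difference between arms at day 1 was 0 (Ddx10, limma adjusted p = 0.0508), and the mean of all days lost Ddx60 and Ddx19a. Same-numbered libraries of the 2 arms did not deviate together (r between -0.141 and 0.178), so the numbers do not pair them. The added difference between arms from day 1 to day 7, at 2, gave 0 with the compared libraries only and 1 to 5 leaving out 1 library. A fit on the compared libraries alone equals the reported one for the mean of all days. With 2 libraries per group the median standard error was 0.156 for a single day.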
